A study of Mus musculus with 2 samples.

Results

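Of the 42422 genes in the count table, 9 that receive, carry or break down retinoic acid were followed, chosen by symbol. They were the retinoic acid receptors Rara, Rarb and Rarg, the retinoid X receptors Rxra and Rxrb, the cellular retinoic acid-binding proteins Crabp1 and Crabp2, and the retinoic acid hydroxylases Cyp26a1 and Cyp26b1. All 9 identifiers were matched in the annotation, and 6 of the 9 passed the filter on low counts. Rarb, Cyp26a1 and Cyp26b1 did not pass it and are described by their counts.

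The cells were germ cells sorted for the Oct4-eGFP transgene from wild-type fetal mouse gonads, bred from Swiss females and Oct4-eGFP males on a 129svJT2 background. Gonads of both sexes, XX and XY, were taken at E12.5 with the mesonephros attached. They were sorted at once (0 h) or after culture in DMSO, the vehicle, lasting 24 h or 72 h. For XY gonads there were also cultures with BGJ398/Infigratinib (FGFRi), which blocks FGF receptors, or with PD0325901/Mirdametinib (MEKi), which blocks MEK1/2, each at 500 nM. Sorting followed removal of the mesonephros, and 6 to 15 gonads made up each sample, so every library is a pool of embryos. The inhibitors were given to whole gonads, somatic cells included, and the medium contained fetal calf serum. Each of the 10 groups had 4 libraries, and RNA was counted as unique molecular identifiers (UMIs) near the poly(A) tail. Library totals ran from 1178950 to 5199150 UMI counts. In what follows, a level is CPM (counts relative to library size), with library size scaled by trimmed mean of M-values, and a gene was called when limma treat found a fold change above 1.5 at an adjusted p under 0.05 over all 15252 genes tested. Levels are compared between groups and not between genes.

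Retinoic acid is made from retinol by dehydrogenases and acts inside the nucleus. RAR and RXR proteins pair on DNA, usually on direct repeats of a short hexamer, repress nearby genes without the ligand and activate them with it. CRABP proteins bind retinoic acid in the cytoplasm, and CYP26 enzymes oxidise it. In the fetal gonad retinoic acid is linked to Stra8 and the start of meiosis in XX germ cells, and CYP26B1 made by somatic cells of the testis is known to lower its level there.

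The libraries fell into 2 sequencing pools. All 0 h and 24 h DMSO libraries and the 24 h MEKi libraries were in pool 1, and the 24 h FGFRi and all 72 h libraries were in pool 2. For the comparisons of 72 h with 24 h and of 24 h FGFRi with 24 h DMSO or MEKi, pool and effect cannot be told apart. Ddx4, an RNA helicase of germ cells, had group means of 218 to 530 CPM, and Pou5f1, the gene behind the sorted reporter, had 55.7 to 120 CPM except in XX at 72 h, where it had 8.34 CPM. Of 7 germ cell markers, Dnd1, Nanos3, Pou5f1 and Sall4 were called higher in XY than XX at 72 h, where 41.0% of all genes were called. Dnd1, Kit, Pou5f1 and Sall4 fell in XX from 24 h to 72 h, where 22.2% were called, with Sall4 at 271 ± 31.2 and 23.1 ± 7.38 CPM (SD, n = 4). With MEKi against XX at 72 h 5 of the 7 were higher, Dnd1, Kit, Nanos3, Pou5f1 and Sall4, where 30.0% of all genes were called. In XY from 24 h to 72 h (27.3% of all genes) Ddx4 rose and Kit fell, and with MEKi against DMSO at 72 h (9.12%) Dnd1 was lower. Their part in the members' differences was not tested. The 24 markers of gonadal somatic cells took 0.0119% to 0.0311% of the counts of a library. Insl3, a Leydig cell hormone, had no count in any library, and Amh, a Sertoli cell hormone, stayed at or below a group mean of 0.587 CPM. The share without the endothelial and germ cell gene Pecam1 was 0.0144% in XX and 0.0141% in XY germ cells at 72 h. In the 24 h DMSO groups it was 0.00597% in XX and 0.0135% in XY, and XY replicate 2 held the most of these 8 libraries. Both the sexes at 24 h and the XX groups at 24 h and 72 h were apart in this share without overlap. Of 56 exact permutation tests of marker shares, 9 were at p = 0.0286, the smallest possible, where 33 would have been needed for any to pass adjustment, so the adjusted p of 0.178 cannot show that shares were alike.

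Single somatic markers moved in the comparisons described here, by limma treat on the 17 of the 24 that were tested. In XY against XX at 72 h, Foxl2, Wt1, Nr5a1 and Hsd3b1 were lower and Cdh5 and Tcf21 were higher (35.3% of the 17, against 41.0% of all genes). In XX from 24 h to 72 h, Foxl2, Wt1, Gata4, Nr2f2 and Hsd3b1 rose and Pecam1 fell (35.3%, against 22.2%). Wt1, a gene of gonadal somatic cells, was at 3.38 ± 2.35 CPM in XX at 24 h, 23.4 ± 6.86 CPM in XX at 72 h and 6.33 ± 2.45 CPM in XY at 72 h (SD, n = 4). Foxl2, a granulosa cell factor, was at 1.61 ± 1.62, 9.41 ± 5.20 and 0.714 ± 0.875 CPM in the same groups. In XY from 24 h to 72 h, Cdh5 and Pdgfra rose and Aard and Pecam1 fell (23.5%, against 27.3%). With MEKi against DMSO at 72 h Aard was higher and Cdh5 lower (11.8%, against 9.12%). Sox9 and Rspo1 were higher in XY than XX at 24 h (11.8%, against 9.99%). With MEKi against XX at 72 h, Foxl2, Wt1 and Hsd3b1 were lower (17.6%, against 30.0%). The part of somatic cells in the members' differences was not tested.

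The receptors and binding proteins differed mainly between the sexes and between 24 h and 72 h. Crabp1 was higher in XX at 0 h and 24 h and higher in XY at 72 h. Rara, Rarg and Rxra joined it in being higher in XY at 72 h. None of the 6 members above the filter passed the test between inhibitor and DMSO at 24 h or 72 h, and Cyp26a1 passed it for MEKi at 72 h only in the fit without the filter. Rarb and Cyp26a1 gave most of their few counts in XX germ cells at 24 h and in XY germ cells with MEKi at 72 h, where 2 of 4 libraries held all those of Rarb.

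**Figure D1:**
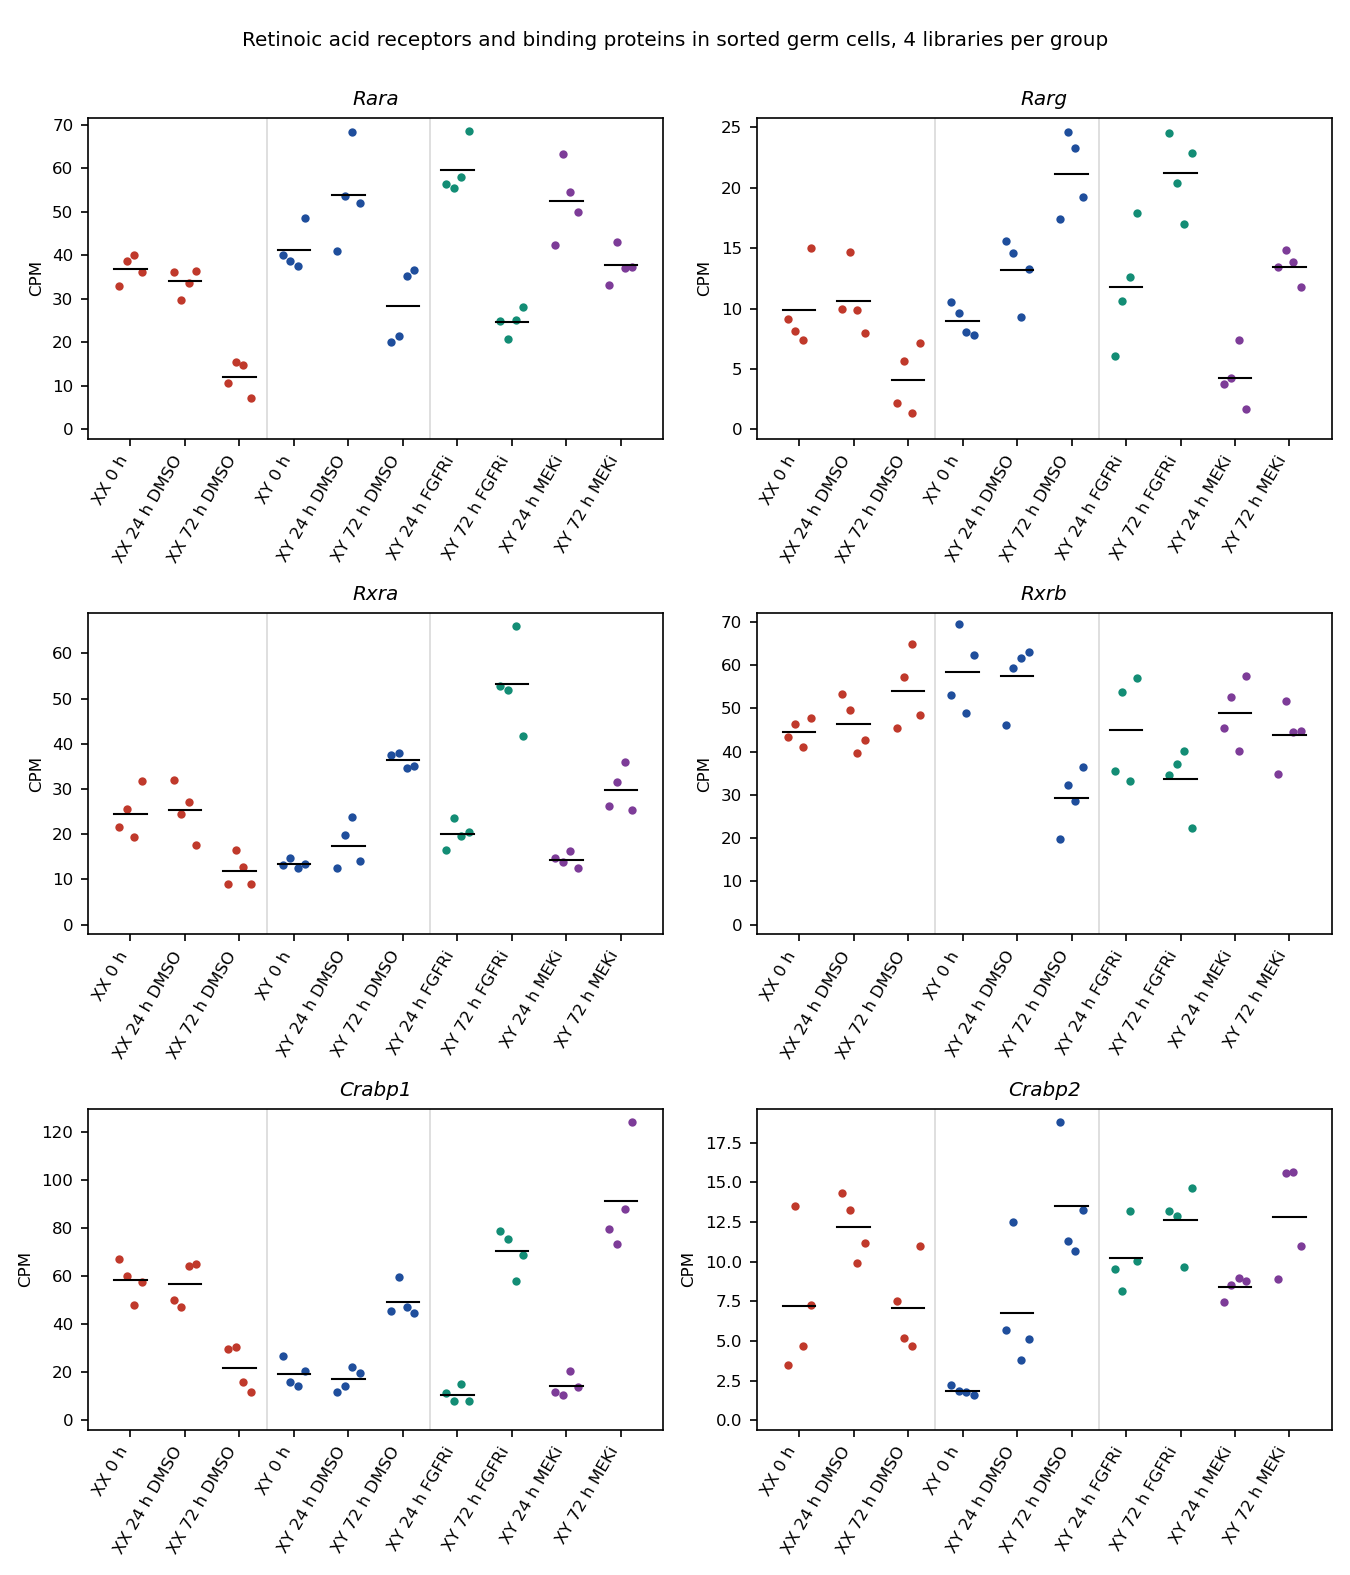
Level (CPM, linear axes that include 0) of the 6 members that passed the filter in every library. Points are libraries, bars are means of 4, and red, blue, green and purple mark XX, XY DMSO or uncultured, XY FGFRi and XY MEKi. XX at 72 h has the lowest mean of the 10 groups for Rara, Rarg and Rxra, and Crabp1 in XY moves from 11.9 to 22.005 CPM at 24 h to 44.5 to 59.4 CPM at 72 h.

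Rara encodes RARα (ENSMUSG00000037992.16, chromosome 11, 98818612 to 98865768 in GRCm39, plus strand). At 0 h its levels were 32.9, 38.6, 40.0 and 36.2 CPM in XX and 39.9, 38.6, 37.4 and 48.6 CPM in XY. At 24 h with DMSO they were 36.1, 29.8, 33.7 and 36.3 CPM in XX and 41.0, 53.7, 68.4 and 51.9 CPM in XY. At 72 h they were 10.7, 15.5, 14.7 and 7.12 CPM in XX and 20.1, 21.3, 35.3 and 36.5 CPM in XY. The 0 h groups overlapped, and at 72 h every XX library lay below every XY library and below every library of all the other groups. Rara fell between 24 h and 72 h in XX (3.03-fold, log2 −1.60 ± 0.26 SE, adjusted p = 0.00134) and in XY (2.00-fold, log2 −1.003 ± 0.17 SE, adjusted p = 0.0335). It was 2.31-fold higher in XY than XX at 72 h (log2 1.21 ± 0.27 SE, adjusted p = 0.0308). The sex difference at 72 h was not called when XX replicate 8 (adjusted p = 0.201), XX replicate 11 (0.0579), XY replicate 5 (0.0890) or XY replicate 6 (0.0790) was left out, within a range of 0.00950 to 0.201. It was also not called with a filter of 1 CPM (0.0515) or without quality weights (0.0531), over a range of the alternatives from 8.82e-05 to 0.615. The fall in XY was not called without XY 24 h replicate 4 (0.154) or 5 (0.135), or without XY 72 h replicate 2 (0.234) or 4 (0.202), within a range of 0.00890 to 0.234.

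Rarg encodes RARγ (ENSMUSG00000001288.15, chromosome 15, 102143373 to 102165952, minus strand). Its levels at 72 h were 2.14, 5.68, 1.34 and 7.12 CPM in XX, from 2 to 11 counts a library, and 17.5, 24.7, 23.3 and 19.2 CPM in XY. The groups did not overlap, and the difference was 5.18-fold (log2 2.37 ± 0.40 SE, adjusted p = 8.32e-05). At 0 h the means were 9.90 ± 3.50 CPM in XX and 8.996 ± 1.29 CPM in XY (SD, n = 4), and at 24 h they were 10.6 ± 2.84 and 13.2 ± 2.76 CPM. Those groups overlapped at each time. The change of the sex difference from 0 h to 72 h was itself called (log2 2.52 ± 0.49 SE, adjusted p = 0.000800). With the replicate number as a block, neither the difference at 72 h (0.115) nor this change (0.159) was called. The ranges of the alternatives were 6.08e-07 to 0.115 and 1.69e-05 to 0.159.

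Rxra encodes RXRα, a partner of the RARs and of several other nuclear receptors (ENSMUSG00000015846.15, chromosome 2, 27566452 to 27653330, plus strand). In XY germ cells its levels were 13.2, 14.8, 12.48 and 13.3 CPM at 0 h and 12.4, 19.8, 23.7 and 14.1 CPM at 24 h. They reached 37.6, 38.0, 34.6 and 35.2 CPM at 72 h, above every 24 h library. In XX they were 21.7, 25.5, 19.4 and 31.8 CPM at 0 h, 32.1, 24.6, 27.3 and 17.6 CPM at 24 h, and 9.10, 16.5, 12.7 and 9.06 CPM at 72 h. XX libraries thus lay above XY libraries at 0 h and below them at 72 h. Rxra rose 2.30-fold in XY from 24 h to 72 h (log2 1.20 ± 0.20 SE, adjusted p = 0.00798), a call lost without XY 24 h replicate 5 (0.0565, within a range of 0.00654 to 0.0565) or without the filter (0.129, over a range of the alternatives from 9.12e-07 to 0.129). At 72 h it was 3.20-fold higher in XY than XX (log2 1.68 ± 0.26 SE, adjusted p = 0.000187). At 0 h the log2 difference of −0.85 ± 0.21 SE was not called (adjusted p = 0.990), and the change from 0 h to 72 h was (log2 2.53 ± 0.33 SE, adjusted p = 2.78e-06).

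Rxrb encodes RXRβ (ENSMUSG00000039656.17, chromosome 17, 34250759 to 34257376, plus strand) and moved the other way from Rxra. Its XY levels were 46.1, 59.4, 61.5 and 63.0 CPM at 24 h and 19.7, 32.2, 28.6 and 36.5 CPM at 72 h, without overlap. At 0 h they were 53.1, 69.5, 49.0 and 62.3 CPM in XY, above the 43.4, 46.3, 41.1 and 47.7 CPM in XX. In XX they were 53.2, 49.6, 39.6 and 42.7 CPM at 24 h and 45.5, 57.3, 64.9 and 48.5 CPM at 72 h, with overlap. Rxrb fell 2.09-fold in XY over this time (log2 −1.07 ± 0.18 SE, adjusted p = 0.0228). The sex difference of log2 −0.91 ± 0.19 SE at 72 h was not called by limma treat (adjusted p = 0.110). edgeR (0.0308) and limma's moderated test with an observed fold over 1.5, which asks less than treat (4.65e-05), called it, over a range of the alternatives from 4.65e-05 to 0.292. Its change from 0 h was called (log2 −1.35 ± 0.24 SE, adjusted p = 0.00747). The fall in XY was not called without XY 24 h replicate 4 (0.0701) or 5 (0.166), or without XY 72 h replicate 2 (0.264) or 5 (0.0519), within a range of 0.00574 to 0.264. The change from 0 h was not called without XY 72 h replicate 2 (0.0655), within a range of 0.00496 to 0.0655.

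Crabp1 encodes a binding protein that holds retinoic acid in the cytoplasm (ENSMUSG00000032291.8, chromosome 9, 54671171 to 54680403, plus strand), and its sex difference changed sign in culture. At 0 h its levels were 67.1, 59.9, 48.1 and 57.4 CPM in XX and 26.8, 16.1, 14.3 and 20.4 CPM in XY. At 24 h they were 50.1, 47.3, 63.9 and 65.1 CPM in XX and 11.9, 14.1, 22.005 and 19.7 CPM in XY. At 72 h they were 29.4, 30.5, 16.1 and 11.6 CPM in XX and 45.2, 59.4, 47.3 and 44.5 CPM in XY. Groups of the sexes did not overlap at any time, with XX the higher at 0 h and 24 h and XY the higher at 72 h. The difference was 2.99-fold in favour of XX at 0 h (log2 −1.58 ± 0.21 SE, adjusted p = 0.000586) and 3.15-fold at 24 h (log2 −1.66 ± 0.23 SE, adjusted p = 0.000276). It was 2.32-fold in favour of XY at 72 h (log2 1.22 ± 0.24 SE, adjusted p = 0.0163). The change from 0 h to 72 h was log2 2.79 ± 0.32 SE (adjusted p = 9.10e-08).

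Crabp1 levels moved in both sexes between 24 h and 72 h, where time and pool cannot be told apart. The part of each sex in the change of sign can therefore not be given. Crabp1 rose 2.79-fold in XY from 24 h to 72 h (log2 1.48 ± 0.23 SE, adjusted p = 0.000857) and fell 2.63-fold in XX (log2 −1.39 ± 0.24 SE, adjusted p = 0.00490). In both sexes the 24 h and 72 h libraries did not overlap. The sex difference at 72 h was not called without XX replicate 7 (0.0514) or 8 (0.258) or XY replicate 4 (0.0533), within a range of 0.00568 to 0.258. The fall in XX was not called without XX 72 h replicate 8 (0.153), within a range of 0.00204 to 0.153. Without the filter on low counts the difference at 0 h was not called (0.0798) and neither was that at 72 h (0.0736), over ranges of the alternatives from 3.26e-08 to 0.0798 and from 1.65e-05 to 0.670.

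Crabp2 encodes the other binding protein, which carries retinoic acid to the receptors in the nucleus (ENSMUSG00000004885.5, chromosome 3, 87855973 to 87860683, plus strand). In XY germ cells its levels were 2.19, 1.82, 1.78 and 1.57 CPM at 0 h, from 2 to 7 counts a library. They were 5.70, 12.502, 3.78 and 5.14 CPM at 24 h and 18.8, 11.3, 10.7 and 13.3 CPM at 72 h. In XX they were 3.50, 13.5, 4.65 and 7.25 CPM at 0 h, 14.3, 13.2, 9.91 and 11.2 CPM at 24 h, and 7.49, 5.16, 4.68 and 10.998 CPM at 72 h. The 4 XY libraries at 0 h lay below every other library in the set. Crabp2 rose 2.44-fold in XY from 24 h to 72 h (log2 1.28 ± 0.30 SE, adjusted p = 0.0468), and 4 of 8 left-out libraries ended that call: XY 24 h replicate 4 (0.223) or 5 (0.231) and XY 72 h replicate 2 (0.232) or 6 (0.0641), within a range of 0.0235 to 0.232. It was also lost without the filter (0.362), with a filter of 1 CPM (0.117), without quality weights (0.0785), by edgeR (0.0535) and by DESeq2 (0.204), over a range of the alternatives from 0.000275 to 0.362. At 0 h the log2 sex difference of −1.80 ± 0.43 SE was not called by limma treat (adjusted p = 0.0866), and it was called without XX replicate 4 (0.0409, within a range of 0.0409 to 0.329). edgeR (0.00560), DESeq2 (0.0448) and the moderated test (0.00109) called it, over a range of the alternatives from 0.00109 to 0.158. The change of the sex difference from 0 h to 72 h was log2 2.70 ± 0.53 SE (adjusted p = 0.000865).

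**Figure D2:**
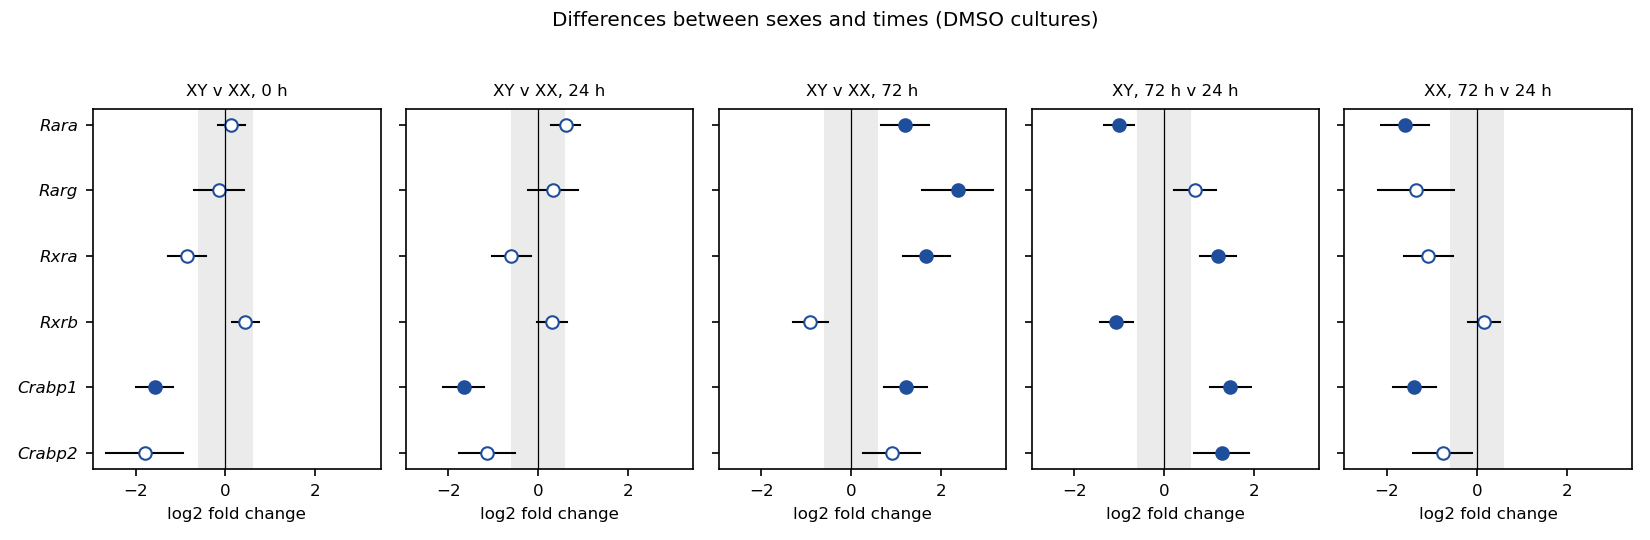
Log2 fold changes of the 6 tested members with 95% confidence intervals from the limma fit, in 5 comparisons of uncultured or DMSO-cultured germ cells. Filled circles were called, open circles were not, and the grey band marks fold changes under 1.5 in either direction. Crabp1 lies at −1.58 and −1.66 in XY against XX at 0 h and 24 h and at 1.22 at 72 h.

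Read against all genes, the counts of members were as follows. In XY against XX germ cells 1 of 6 members was called at 0 h, where 3.0% of all genes were, and 1 of 6 at 24 h, where 9.99% were. At 72 h 4 of 6 were called, all higher in XY, against 41.0% of all genes. From 0 h to 24 h none of the 6 was called in XY, where 2.94% of genes were, or in XX, where 3.23% were. At an unadjusted p under 0.05 treat picked 1 member in XY and 0 in XX, edgeR called 1 (Crabp2 in XY) and 0, and DESeq2 called 0 and 0. From 24 h to 72 h 5 of 6 were called in XY (27.3% of genes), 3 higher and 2 lower, and 2 of 6 in XX (22.2%), both lower. In XY edgeR called 4 of the 5 and DESeq2 called 2, Rxra and Crabp1. The falls of Rara and Rxrb in XY were not called with size factors (adjusted p = 0.125 and 0.0845), library size (0.144 and 0.106), no filter (0.140 and 0.112) or DESeq2 (0.327 and 0.316), nor was that of Rara with the compared groups alone (0.113), over ranges of the alternatives from 1.25e-06 to 0.327 and 1.52e-06 to 0.316, and with size factors the median over all genes moved by 0.12. The median log2 change of the 6 was 0.94 in XY and −1.22 in XX, where the medians over all genes were 0.02 and −0.10. The change of the sex difference was called for 0 of 6 members from 0 h to 24 h (0.452% of genes, with 0 at an unadjusted p under 0.05 and 0 by edgeR and by DESeq2). It was called for 5 of 6 from 0 h to 72 h (28.9%), and its median was 2.52, against 0.07 over all genes.

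The inhibitors moved few genes at 24 h, and none of the 6 members above the filter was called. With FGFRi against DMSO 0 of 6 members were called at 24 h (0.262% of all genes) and at 72 h (0.00656%). With MEKi 0 of 6 were called at 24 h (0.164%) and at 72 h (9.12%). Between MEKi and FGFRi 0 of 6 were called at 24 h (0.105%) and at 72 h (12.7%), and the change of the MEKi effect between times was called for 0 of 6 (1.89% of genes). In these 7 comparisons treat gave 1 member at an unadjusted p under 0.05 in 4 of them, MEKi at 24 h and at 72 h, MEKi against FGFRi at 24 h and MEKi by time, and 0 in the others. edgeR and DESeq2 called 0 members in all 7. Blood cell markers took 0.0314% of the counts with MEKi at 24 h and 0.00895% with DMSO (exact permutation p = 0.0286, the smallest possible, adjusted p = 0.178). By limma treat 3 of 6 tested blood genes were higher with MEKi at 24 h, the haemoglobin genes Hbb-y (11.7-fold), Hba-x (9.08-fold) and Hba-a2 (4.05-fold), among 25 genes called in that comparison. The part of blood cells in the MEKi values at 24 h was not tested.

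**Figure D3:**
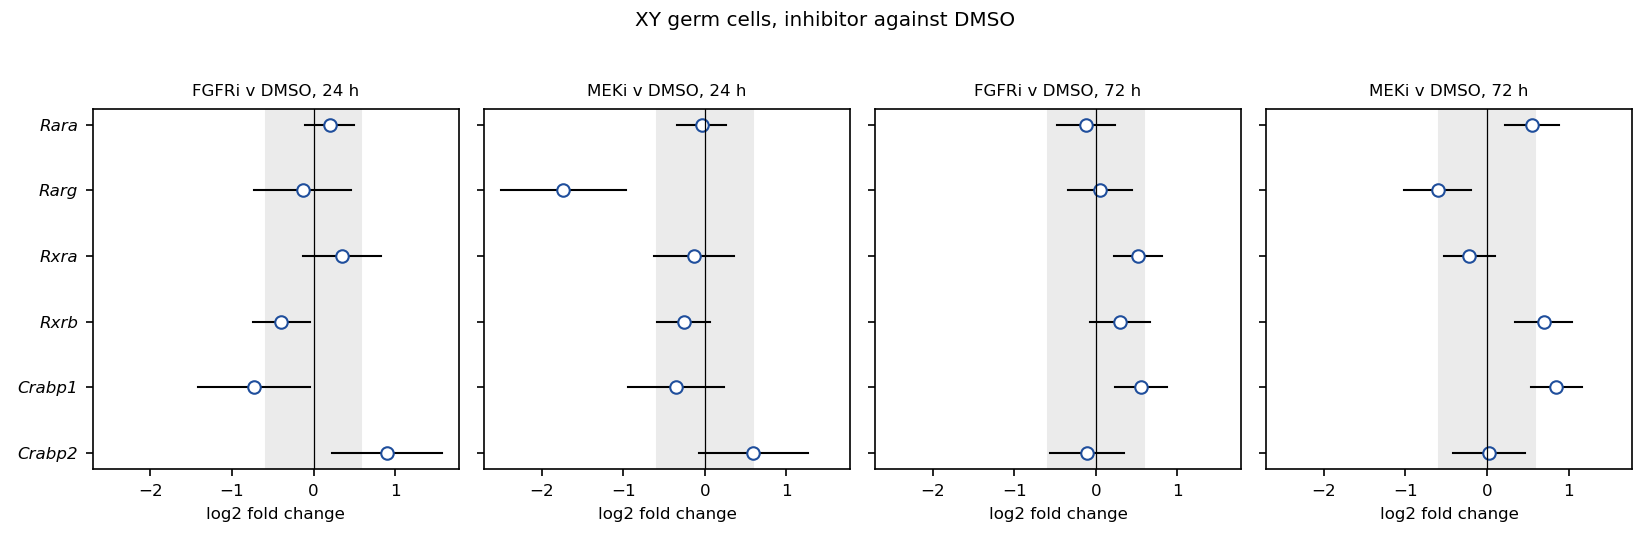
Log2 fold changes of the 6 tested members with 95% confidence intervals, inhibitor against DMSO in XY germ cells at each time. All circles are open because none of the 6 was called, and the grey band marks fold changes under 1.5. Rarg with MEKi at 24 h lies farthest from 0, at −1.74.

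Rarg with MEKi at 24 h had the largest log2 difference of the 24 plotted. It had 8, 8, 14 and 3 counts, or 3.71, 4.25, 7.41 and 1.64 CPM. DMSO libraries had 30, 28, 27 and 49 counts, or 15.6, 14.6, 9.28 and 13.3 CPM, and FGFRi libraries had 6.08, 10.6, 12.6 and 17.9 CPM. MEKi and DMSO did not overlap, MEKi and FGFRi did, and the log2 difference from DMSO was −1.74 ± 0.38 SE (95% interval −2.50 to −0.97, adjusted p = 0.483). At 72 h Rarg was at 13.4, 14.9, 13.9 and 11.8 CPM with MEKi, again below all 4 DMSO libraries, with a log2 difference of −0.60 ± 0.21 SE (adjusted p = 1). The moderated test called Rarg at both times, and Crabp1 and Rxrb at 72 h (Rarg ranges of adjusted p over the alternatives 0.00265 to 1 and 0.0138 to 1).

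Crabp1 with MEKi at 72 h was at 79.4, 73.2, 87.6 and 124 CPM, above every library of every other group except 2 of the FGFRi libraries. FGFRi libraries were at 78.9, 75.2, 58.0 and 68.5 CPM and DMSO libraries at 44.5 to 59.4 CPM. The log2 difference from DMSO was 0.85 ± 0.16 SE with MEKi (95% interval 0.54 to 1.16, adjusted p = 0.291, from 1.04e-05, by the moderated test, to 1 over the alternatives). The DMSO and MEKi libraries did not overlap, and DMSO and FGFRi libraries did. Rxra with FGFRi was at 52.8, 52.0, 66.1 and 41.8 CPM at 72 h, the highest group of the 10, above the DMSO libraries without overlap, and was not called under any setting tried.

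The other levels with inhibitors were as follows, and limma treat called none of these members against DMSO. Rara had 42.3, 63.2, 54.5 and 49.8 CPM with MEKi and 56.4, 55.4, 58.0 and 68.6 CPM with FGFRi at 24 h, overlapping the DMSO libraries. At 72 h it had 33.3, 43.0, 37.1 and 37.2 CPM with MEKi and 24.9, 20.7, 25.1 and 28.0 CPM with FGFRi, again overlapping DMSO, and MEKi lay above FGFRi without overlap. Rarg with FGFRi at 72 h had 24.5, 20.4, 17.0 and 22.8 CPM, overlapping DMSO.

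Rxra had 14.9, 13.8, 16.4 and 12.6 CPM with MEKi and 16.5, 23.6, 19.5 and 20.6 CPM with FGFRi at 24 h. Both overlapped DMSO. With MEKi at 72 h it had 26.3, 31.5, 36.1 and 25.5 CPM, below all FGFRi libraries. Rxrb had 45.5, 52.6, 40.2 and 57.5 CPM with MEKi and 35.6, 53.8, 33.3 and 57.0 CPM with FGFRi at 24 h. At 72 h it had 34.7, 51.6, 44.4 and 44.7 CPM with MEKi and 34.7, 37.1, 40.2 and 22.4 CPM with FGFRi, and both overlapped DMSO. The log2 difference of Rxrb with MEKi at 72 h was 0.69 ± 0.18 SE (adjusted p = 0.940), and the moderated test called it (0.000952, within a range of 0.000952 to 1 over the alternatives).

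Crabp1 at 24 h had 11.6, 10.6, 20.6 and 13.7 CPM with MEKi and 11.3, 8.15, 14.9 and 7.91 CPM with FGFRi, against 11.9 to 22.005 CPM with DMSO. Crabp2 at 24 h had 7.43, 8.50, 8.99 and 8.76 CPM with MEKi and 9.55, 8.15, 13.2 and 10.02 CPM with FGFRi, within or close to the 3.78 to 12.502 CPM of DMSO. At 72 h it had 8.93, 15.6, 15.7 and 10.97 CPM with MEKi and 13.2, 12.9, 9.66 and 14.7 CPM with FGFRi. Both overlapped the 10.7 to 18.8 CPM of DMSO.

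XY germ cells with MEKi at 72 h were also set against XX germ cells at 72 h. In that comparison 4 of 6 members were called, all higher with MEKi, where 30.0% of all genes were called. They were Crabp1 (4.19-fold, log2 2.07 ± 0.22 SE, adjusted p = 1.75e-07), Rara (3.38-fold, log2 1.76 ± 0.25 SE, adjusted p = 7.99e-05), Rxra (2.75-fold, log2 1.46 ± 0.25 SE, adjusted p = 0.00227) and Rarg (3.41-fold, log2 1.77 ± 0.39 SE, adjusted p = 0.00805). The comparison shares the XX libraries with that of XY DMSO against XX. Rxrb had a log2 difference of −0.21 ± 0.16 SE from XX with MEKi, with overlap, beside −0.91 ± 0.19 SE with DMSO, and neither was called. Rarg was not called without XX replicate 11 (0.0702, within a range of 0.00608 to 0.0702). With the replicate number as a block none of the 4 was called. The adjusted p was then 0.0879 for Crabp1, 0.143 for Rara, 0.507 for Rxra and 0.517 for Rarg, the highest of the alternatives for each.

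Rarb and Cyp26a1 are textbook targets of retinoic acid, and direct repeats of the receptor hexamer lie upstream of both. Rarb encodes RARβ (ENSMUSG00000017491.9, chromosome 14, 5650540 to 6041094 in GRCm39, plus strand). Cyp26a1 encodes an enzyme that breaks retinoic acid down (ENSMUSG00000024987.6, chromosome 19, 37686241 to 37689984, plus strand). The RefSeq windows from 250 bases before to 50 bases after a gene start, in build GRCm38.p6, were searched on both strands for a pair of hexamers in the same direction with 5 bases between them, each of them AGGTCA, with the variants AGTTCA, then GGGTCA, and last GGTTCA allowed. The pair was in 32 of 32851 windows (0.0974%) and in 2 of the 14 windows found for 8 of the 9 members, and those were Rarb and Cyp26a1. A pair with 2 bases between the hexamers was in 88 windows (0.268%) and in 0 of the 14. Crabp2 had no entry. The windows are shown because they are the only member windows with the pair, which is in capitals, hexamer, spacer and hexamer. The Rarb window is chr14:16575427-16575726, minus strand in that build, with the pair from 53 to 37 bases before the start, and the Cyp26a1 window is chr19:37697558-37697857, plus strand, with the pair on the other strand from 32 to 16 bases before the start.
Rarb: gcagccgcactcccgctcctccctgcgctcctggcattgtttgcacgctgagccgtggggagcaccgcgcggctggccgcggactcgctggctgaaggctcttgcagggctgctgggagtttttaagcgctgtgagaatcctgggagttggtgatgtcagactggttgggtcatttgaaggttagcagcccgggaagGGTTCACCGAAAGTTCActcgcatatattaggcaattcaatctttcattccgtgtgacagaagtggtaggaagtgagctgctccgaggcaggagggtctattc
Cyp26a1: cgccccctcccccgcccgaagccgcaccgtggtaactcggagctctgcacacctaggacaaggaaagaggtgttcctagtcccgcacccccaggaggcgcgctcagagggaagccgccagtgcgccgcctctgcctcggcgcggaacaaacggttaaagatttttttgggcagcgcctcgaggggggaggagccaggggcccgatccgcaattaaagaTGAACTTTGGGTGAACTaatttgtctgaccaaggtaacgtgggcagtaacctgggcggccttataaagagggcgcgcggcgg

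Both genes had few counts, and both had most in XX germ cells at 24 h and XY germ cells with MEKi at 72 h. Rarb had 11, 5, 7 and 9 counts in XX at 24 h (3.42, 2.36, 3.47 and 3.59 CPM). It had 0, 0, 0 and 1 in XY at 24 h with DMSO, 1, 0, 7 and 2 in XX at 0 h, and 0, 2, 1 and 1 in XX at 72 h. XX at 24 h did not overlap with XY at 24 h or with XX at 72 h, and each difference had p = 0.0286 by exact permutation test, two-sided, the smallest that 70 regroupings allow (adjusted p = 0.12 over 42 tests). With MEKi at 72 h it had 0, 12, 11 and 0 counts, so 2 libraries held all 23. The DMSO libraries at 72 h had 1, 1, 0 and 1. Those 2 MEKi libraries, replicates 3 and 4, also had the most Sertoli cell markers of the 4, 0.0120% and 0.00799% of their counts against 0.00387% and 0.00415% in replicates 2 and 5. Replicates 3 and 4 were also the deepest of the 4, with 4784960 and 4453780 UMI counts in all, against 1940300 and 2385980. The part of Sertoli cells or of depth in the Rarb counts was not tested. In XX at 24 h the Sertoli share was 0.00189% to 0.00277%.

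Cyp26a1 had 5, 2, 4 and 3 counts in XX at 24 h (1.56, 0.945, 1.98 and 1.20 CPM). It had no count in XY at 0 h or in XY with DMSO or FGFRi at 24 h, where 3 counts over the group would be 0.306, 0.287 and 0.499 CPM. With MEKi it had 0, 1, 2 and 2 counts at 24 h. At 72 h it had 5, 16, 21 and 3 counts with MEKi (2.48, 2.86, 4.16 and 1.18 CPM), against 0, 1, 0 and 0 with DMSO, 1, 4, 0 and 0 with FGFRi, and 1, 0, 0 and 0 in XX. The MEKi libraries at 72 h lay above all libraries of these 3 groups, each with p = 0.0286 by exact permutation test, the smallest possible (adjusted p = 0.12 over 42 tests). Replicates 3 and 4, with the most Sertoli markers of the 4, also held the most Cyp26a1, 16 and 21 counts (2.86 and 4.16 CPM). They were also the deepest, with 4784960 and 4453780 UMI counts in all, against 1940300 and 2385980 in replicates 2 and 5. Replicates 2 and 5 had 5 and 3 counts (2.48 and 1.18 CPM), and the highest DMSO library was at 0.418 CPM. The part of Sertoli cells or of depth in the Cyp26a1 counts was not tested. In the limma treat fit without the filter on low counts, Cyp26a1 was called for MEKi at 72 h against DMSO (adjusted p = 0.000359), FGFRi (0.00508) and XX (0.000282). It was also called for XY against XX at 24 h (0.00135), for XX at 24 h against 0 h (0.00778) and for XX at 72 h against 24 h (0.0247). That fit called Rarb for XY against XX at 24 h (adjusted p = 3.91e-05). It did not call Rarb for XX at 72 h against 24 h (0.0844) or for XX at 24 h against 0 h (0.542). In the same fit Rarb was not called for MEKi against DMSO at 72 h (adjusted p = 1).

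Shared sample indexes and an overlapping gene could add to such low counts. Each XX 24 h library shared a sample index with an XY 72 h FGFRi library and each XY 72 h MEKi library with an XY 24 h DMSO library of the other pool. Taking out 3.35% of the partner's counts, the highest rate estimated, removed no count of Rarb, Cyp26a1 or Cyp26b1. Where these genes had counts, the partner library held too few of them for the rounded subtraction to take any. The step thus could not show whether shared indexes added counts. A rate was estimated in 10 libraries, none of them XY 72 h MEKi or XY 24 h DMSO libraries. Rarb overlaps the end of Top2b on the opposite strand, and whether counting used strand is not given in the sources used here. Top2b, a topoisomerase, had its highest mean in XX at 72 h, 170 CPM over library size, where Rarb had 4 counts in all. Its next highest was in XX at 24 h, 119 CPM, where Rarb had 32. The part of Top2b in the Rarb counts was not tested.

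Cyp26b1 encodes the hydroxylase known from testis somatic cells (ENSMUSG00000063415.12, chromosome 6, 84548396 to 84570890, minus strand). It had 4, 5, 5 and 3 counts in XY at 0 h (1.75, 1.30, 4.46 and 1.18 CPM) and 0, 0, 0 and 2 in XX. The groups did not overlap (exact permutation p = 0.0286, the smallest possible, adjusted p = 0.12). At 24 h it had 8, 3, 2 and 2 counts in XY and 3, 3, 4 and 6 in XX, with overlap, and in XX these lay above 0 h without overlap (exact permutation p = 0.0286, the smallest possible, adjusted p = 0.12). The limma treat fit without the filter called that rise (log2 2.83, adjusted p = 0.0455) and not the sex difference at 0 h (log2 2.71, adjusted p = 0.102). Cyp26b1 had 0 to 5 counts with an inhibitor at 24 h. At 72 h it had 11, 14, 2 and 4 counts with FGFRi and 3, 2, 1 and 1 with DMSO. It had 3, 5, 1 and 0 with MEKi and 0, 4, 0 and 1 in XX at 72 h. FGFRi overlapped with DMSO and with MEKi (exact permutation p = 0.0857, adjusted p = 0.277 for each). The most Cyp26b1 in the XY 0 h group (4.46 CPM, replicate 5) and in the XY 24 h DMSO group (4.15 CPM, replicate 2) was in the library with the most Sertoli cell markers, 0.00517% and 0.0177% of its counts. The part of those cells in the Cyp26b1 counts was not tested. In sorted cells, fewer cells of a type and less RNA per cell cannot be told apart.

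**Figure D4:**
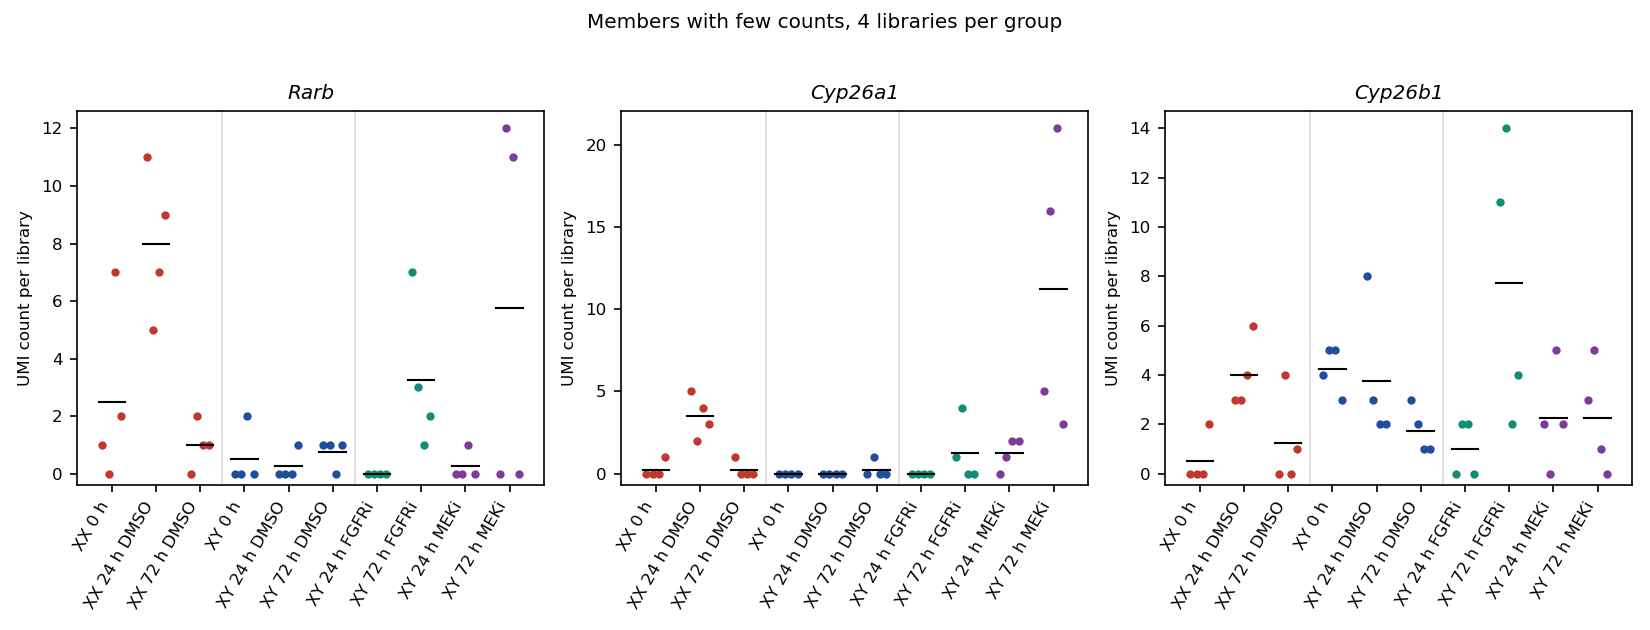
UMI counts of Rarb, Cyp26a1 and Cyp26b1 in every library (points) with group means (bars), not scaled for depth. Rarb reaches 5 to 11 in XX at 24 h, and Cyp26a1 reaches 3 to 21 with MEKi at 72 h against 0 to 1 with DMSO.

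Of 56 other genes of the pathway that were listed, 42 were tested. The 9 tested genes of retinoid conversion do not all act towards retinoic acid. In XY from 24 h to 72 h, 2 rose (Aldh1a2 and Bco1) and 3 fell (Adh5, Dhrs4 and Rdh11), where 27.3% of all genes were called. In XX 1 rose (Aldh1a2) and 2 fell (Dhrs4 and Rdh11), where 22.2% were. Rdh11, a retinaldehyde reductase, went from 20.2 ± 6.58 to 5.60 ± 1.86 CPM in XY and from 28.6 ± 6.21 to 7.52 ± 1.88 CPM in XX (SD, n = 4). Aldh1a2, the retinaldehyde dehydrogenase of the embryo, rose in XY germ cells from 6.38 ± 1.25 CPM at 0 h to 18.8 ± 7.21 CPM at 24 h (2.85-fold, adjusted p = 0.0469) and 43.6 ± 5.75 CPM at 72 h (2.57-fold, adjusted p = 0.000738). In XX it was at 5.82 ± 3.69 CPM at 24 h and rose to 21.2 ± 1.74 CPM at 72 h (5.03-fold, adjusted p = 8.08e-05). It was at 43.2 ± 4.26 CPM with MEKi and 44.7 ± 4.84 CPM with FGFRi at 72 h (SD, n = 4 throughout). Between the sexes at 72 h 2 of the 9 were called, against 41.0% of all genes. Bco1, which cleaves carotene to retinaldehyde, was higher in XY, at 6.24 ± 1.29 against 0.420 ± 0.510 CPM (adjusted p = 9.54e-05). Rdh10, the retinol dehydrogenase that acts before Aldh1a2, was 3.07-fold lower in XY than XX at 72 h (adjusted p = 0.000714), with 10.0 ± 1.65 against 30.2 ± 4.94 CPM. In retinol uptake and storage 0 of 3 tested genes were called between the sexes at any time, and Rbp4, which carries retinol in blood, rose in XY from 24 h to 72 h (3.20-fold).

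Between the sexes at 72 h, 16 of the 42 pathway genes were called (38.1%), against 41.0% of all genes. Of the receptors that share RXR, 2 of 9 were called there. Pparg, known from fat cells, had 32.9 ± 3.75 CPM in XX and in XY DMSO libraries 0.209 ± 0.418 CPM, and Vdr, the vitamin D receptor, was 5.40-fold higher in XY (adjusted p = 0.00349). Of 6 orphan receptors that bind the same repeats 1 was higher and 3 were lower in XY at 72 h. Nr6a1, the germ cell nuclear factor, was lower in XY at all 3 times, with 167 against 38.2 CPM at 0 h, 169 against 34.2 CPM at 24 h and 124 against 45.4 CPM at 72 h. Of 10 coregulators 2 were higher and 3 lower in XY at 72 h. Ncor1, the corepressor of receptors without ligand, had a level of 107 ± 6.11 CPM in XY against 215 ± 30.3 CPM in XX (1.94-fold lower, adjusted p = 0.00158). Ncoa1, a coactivator, was at 15.6 ± 5.72 and 84.2 ± 10.7 CPM.

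Among the genes that respond to retinoic acid 4 of 8 were tested. Stra8, a regulator of meiotic entry, was at 972 ± 263 CPM in XX and 106 ± 10.4 CPM in XY at 24 h, and 948 ± 186 CPM with MEKi against 102 ± 28.5 CPM with DMSO at 72 h (9.03-fold, adjusted p = 2.34e-18). Rec8, a meiotic cohesin, was at 142 ± 15.7 CPM with MEKi and 36.8 ± 2.17 CPM with DMSO at 72 h (3.91-fold, adjusted p = 3.47e-09). These were 2 of the 4 tested. Meiosin, the partner of STRA8, was not called, at 9.20 ± 2.52 CPM with MEKi and 2.98 ± 1.31 CPM with DMSO (adjusted p = 0.0937), and it was 3.63-fold lower with MEKi than in XX at 72 h (adjusted p = 7.89e-06). Tgm2, a transglutaminase, was not called, at 11.6 ± 4.17 and 14.7 ± 2.62 CPM. Over the 42 pathway genes, 5 rose and 1 fell with MEKi at 72 h (14.3%, against 9.12% of all genes), and 0 were called with FGFRi at 24 h (0.262% of all genes) or 72 h (0.00656%) by limma treat. At 24 h 1 of 42 was called with MEKi, Stra8 (2.38%, against 0.164% of all genes). From 24 h to 72 h in DMSO, 8 rose and 5 fell in XY (31.0%, against 27.3% of all genes), and 5 rose and 5 fell in XX (23.8%, against 22.2%).

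The genes whose mean log2 levels over the 10 groups ran closest to each member, by Pearson's r and as a description only, were named by rank. They were Scpep1 (0.991), Yif1a and Psme2 for Rara, and Rfx1 (0.934) after the pseudogenes Gpi-ps and Gm6767 for Rarg. They were Vwa5b2 (0.974), Usp2 and Tnks1bp1 for Rxra, and Ncln (0.981), Nsmce3 and Gm42659 for Rxrb. For Crabp1 they were Tbx1 (0.988), Foxo6 and Pcgf5, and for Crabp2 Mettl27 (0.949), Rnf181 and Vgll4. The groups share sexes, times and pools, so such values are high for many genes.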

How the data were processed

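RNA from 40 samples of sorted germ cells was measured in 2 pools of 20 libraries. The deposited values are UMI counts per gene, which the authors made by mapping reads to GRCm39 with Rsubread and collapsing UMIs with scPipe. Versions, annotation release and strand setting are not given in the sources used here. A UMI of 10 bases is described and 8 are read in the analysis code. Depth per library is 1178950 to 5199150 counts, and each library is a pool of 6 to 15 gonads. Whether the libraries came from separate cultures is not given, so p-values measure only the spread between these samples. Pairs of libraries in a group differed by more than sampling noise, with chi-square per degree of freedom of 2.18 to 7.68.

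Symbols and coordinates come from the GENCODE M39 annotation of GRCm39. After filterByExpr (15252 of 42422 genes kept) and TMM scaling with edgeR 4.0.16, voomWithQualityWeights and treat of limma 3.58.1 were fitted in R 4.3.3 with 1 mean per group over all 40 libraries, against a fold change of 1.5, with Benjamini-Hochberg adjustment. Each comparison in the text is a contrast of that fit. Members below the filter were tested by exact permutation, two-sided, of 4 against 4 libraries, adjusted over 42 tests, an alternative added after seeing the data. Shares of counts from marker lists were tested the same way over 56 tests. The fit was tested on simulated data. Alternatives were other scalings, filters, weights and tools (edgeR glmTreat, DESeq2 1.42.0), the compared groups alone, each library left out, a replicate block and subtraction of counts tied to a shared index. In the 14 comparisons of 2 groups, deviations of same-numbered libraries correlated at −0.123 to 0.150, so numbers were not taken to pair samples.

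The members and lists were chosen with earlier results of these data known. Named genes are the members, the listed genes that were called or stand beside a member, and the 3 genes closest to each tested member over group means; 1 listed gene is counted with its list and not reported here by name. A table of sample indexes was used only to find libraries that share one, and the study's somatic cell data were not used here.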

Additional observations from a re-analysis of the deposited data

Results flagged for a closer look

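The sex difference changed between 0 h and 72 h for 5 of 6 tested members, by limma treat on the interaction, which called 28.9% of all genes. The log2 change was 2.79 for Crabp1, 2.70 for Crabp2, 2.53 for Rxra and 2.52 for Rarg, all towards XY, and −1.35 for Rxrb, towards XX. The 0 h libraries were in pool 1 and the 72 h libraries in pool 2, and a shift of a whole pool that is the same in both sexes cancels in this difference.

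A library far from the others of its group was found in 1 of 70 member and group pairs with at least 10 counts, where chance alone gives about 1 in 20. Rarb in XX 24 h replicate 5 was at 2.36 CPM, from 5 counts, and the other 3 libraries were at 3.42 to 3.59 CPM.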

How the results depend on the processing

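Of the 22 member changes called by limma treat, 209 of 242 values under other settings kept the direction and the call, 33 kept the direction and lost the call, and 0 reversed. With 1 library left out, 193 of 216 kept the call and 23 lost it. The number of members called, of 6, was 1 to 2 without a library for XY against XX at 0 h, 1 to 1 at 24 h and 2 to 4 at 72 h. It was 1 to 5 for XY at 72 h against 24 h, 1 to 3 for XX, 3 to 4 for MEKi against XX at 72 h, 4 to 5 for the change of the sex difference to 72 h, and 0 to 0 elsewhere.

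The replicate number as a block took the calls from 4 to 0 for XY against XX at 72 h, from 5 to 3 for XY and 2 to 0 for XX at 72 h against 24 h, and from 4 to 0 for MEKi against XX at 72 h. For the change of the sex difference to 72 h it took them from 5 to 4, since Rarg was not called (log2 1.89, adjusted p = 0.159), and between the sexes at 0 h Crabp1 lost its call (0.0646) and Crabp2 gained one (0.0194). XX and XY at 72 h share 1 number, and same-numbered libraries did not deviate together. For XY against XX at 0 h, 3 members were called by the moderated test, 2 by edgeR, by DESeq2 and after index subtraction, and 0 without a filter. The moderated test called 4 at 24 h, 1 for XY and 1 for XX from 0 h to 24 h, 5 for XX at 72 h against 24 h, 1 for MEKi against DMSO and 1 against FGFRi at 24 h, 3 and 3 at 72 h, and 3 for MEKi by time. edgeR called 1 for XY from 0 h to 24 h and 4 for XX at 72 h against 24 h. For XY at 72 h against 24 h, DESeq2 called 2, size factors and library size 3 each, and no filter 1. The causes were not tested.

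The median over all genes moved by up to 0.116 (log2) with size factors and 0.217 with library size. Without Pecam1 the difference in the share of somatic markers changed sign for XY at 24 h against 0 h (0.00332%), XY at 72 h against 24 h (0.000576%) and MEKi against DMSO at 24 h (−0.00175%). The Cyp26b1 difference with library size was −0.0440 CPM for XY against XX at 24 h and 0.0590 CPM for MEKi against XX at 72 h, the other sign from TMM. Depth limits Rarb, Cyp26a1 and Cyp26b1, which had 0 counts in many libraries, and with 4 against 4 libraries no exact p can fall below 0.0286.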
